A study of Homo sapiens with 6 samples.

Results

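Expression of 48 genes of DNA double-strand break and interstrand crosslink repair was examined in K562 cells in which the TIP60 chromatin complex either held or lacked its TRRAP module. The 48 genes were chosen by symbol, because TIP60 acts in the cellular response to double-strand breaks, and they are 48 of the 60609 genes in the count files. All 48 were present, and all 48 passed the filter (normalized counts averaging 5 or more), with means over the 6 libraries from 150 (RAD54B) to 35136 (PRKDC). K562 is an established human leukaemia line. In every library endogenous EP400, the scaffold and remodelling ATPase of TIP60, carried a homozygous EP400-dTAG degradation tag. Cells had received 500 nM dTAGV-1, the small molecule that removes the tagged protein, for 24 h. The WT group (3 libraries) expressed exogenous wild-type EP400 from the AAVS1 site, and the Delta-TRRAP group (3 libraries) expressed from the same site an EP400 without the SANT and HD region to which TRRAP binds. Each complemented line was a single isogenic clone, so clone and genotype cannot be told apart, and p-values measure the spread between replicates of a clone.

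A double-strand break is sensed by the MRE11-RAD50-NBN complex and the Ku heterodimer, and is signalled by the ATM and ATR kinases. Cells then either rejoin the ends directly, through Ku, DNA-PKcs and the ligase IV complex, or cut back the ends and copy the sister chromatid by homologous recombination. Interstrand crosslinks are handled by the Fanconi anaemia pathway, which feeds its breaks into homologous recombination. These genes are widely expressed in dividing cells, and many recombination genes are most active in S and G2 phase. K562 lacks functional p53, so checkpoint signalling in this line runs without that effector.

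The libraries held between 35076835 and 42616061 counts in genes. Mitochondrial genes took between 3.18% and 3.71% in WT, against 5.07% to 6.24% in Delta-TRRAP. EP400 itself had between 4924 and 5425 normalized counts in WT, against 4350 to 6694 in Delta-TRRAP (adjusted p = 0.354), TRRAP did not pass the test either (adjusted p = 0.869), and KAT5, the acetyltransferase subunit, fell by 0.30 on the log2 scale (SE 0.05, adjusted p = 6.9e-05). Deposited counts do not separate the tagged endogenous EP400 from the transgene, so they do not check the genotype labels. The labels call the cells lymphoblasts. All 12 erythroid genes passed the filter, with WT means from 9.79 (HBE1) to 193716 (TFRC) and GATA1 at 6661, while 7 of 12 lymphoid genes were too low to test. Of 10 fibroblast genes 2 were at 0 in every library, and the list summed to between 36.9 and 58.5 in WT, against 919 to 954 in Delta-TRRAP, nearly all of it COL1A2, whose part in the results below was not tested.

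Most of the repair genes were lower in Delta-TRRAP, by modest amounts. By edgeR (quasi-likelihood test, Benjamini-Hochberg adjustment over 19114 genes), 27 of the 48 fell (56.2%) at an adjusted p of 0.01 or less, where 28.9% of all genes tested fell. Only PALB2 and LIG4 rose (4.17%), where 29.6% of all genes rose. The remaining 19 did not pass. The median log2 fold change of Delta-TRRAP over WT was -0.29 over the 48 genes and 0.006 over all genes tested, and 38 of the 48 fold changes were below 0, against 49.6% of all genes.

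The repair genes were abundant, and abundant genes fell more often in these libraries. Among the 11462 genes averaging 100 or more normalized counts, which include all 48 repair genes, 42.1% fell and 26.5% rose, and the median log2 fold change was -0.11. Beside these abundant genes the repair genes had 56.2% against 42.1% for decreases and 4.17% against 26.5% for increases. At a 1.5-fold threshold 12 repair genes fell (25%), beside 14.2% of all genes, and 1 rose, beside 21.3%. At the study's 2-fold threshold 1 repair gene fell, XRCC4, beside 6.34% of all genes, and none (0) rose, beside 16.2%. In 29 repair genes all 3 Delta-TRRAP libraries lay below all 3 WT libraries (35.1% of all genes did so), and in 4 they lay above (36% of all genes). The 4 were ATRIP, RAD51B, PALB2 and LIG4. The shares at 1.5-fold and 2-fold and of separate libraries were taken over all genes tested. They are therefore not matched for abundance. These are levels of RNA relative to all other RNA in bulk cells, in which fewer cells expressing a gene and less RNA per cell cannot be told apart.

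**Figure D1:**
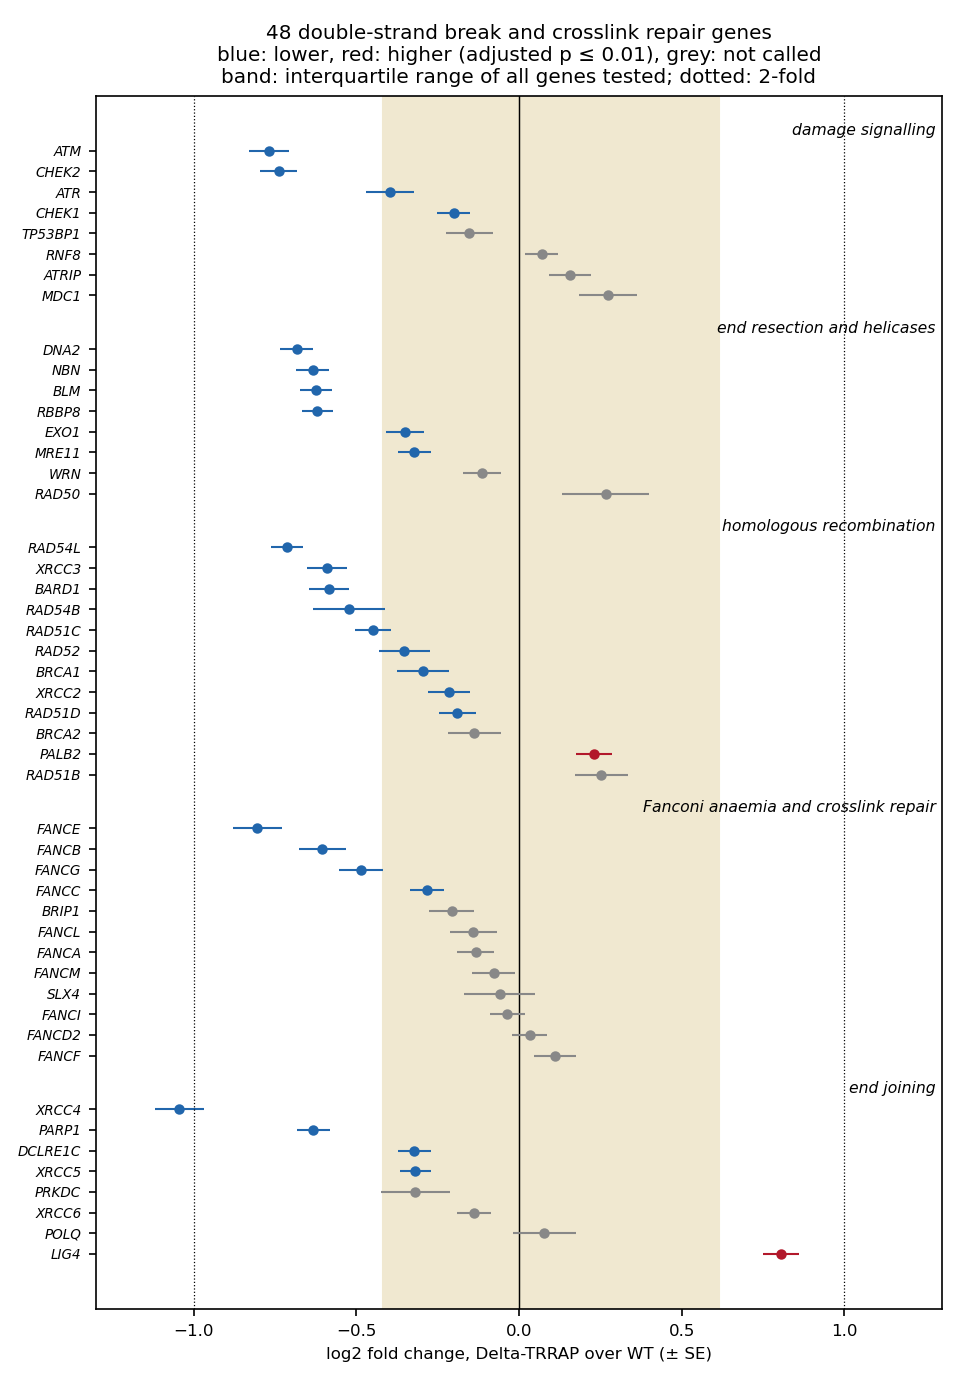
Log2 fold change of Delta-TRRAP over WT with its standard error (horizontal axis) for each of the 48 repair genes, grouped by role. Blue points fell and red points rose at an adjusted p of 0.01 or less, grey points did not pass, the band is the interquartile range of all genes tested (-0.42 to 0.61), and dotted lines mark 2-fold. Points lie left of 0 for 38 genes, XRCC4 lies past the left dotted line at -1.04 and LIG4 lies farthest right at 0.80.

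Because the genes moved in 1 direction for the most part, their promoters were searched for short motifs of cell cycle and growth control. RefSeq promoter windows on GRCh38.p14, from 250 bases before to 50 bases after the start, matched 41 of the 48 genes. Both strands were searched. The E2F letters TTTCCCGC, TTTCGCGC, TTTGCCGC or TTTGGCGC stood in 6 of the 41 windows (14.6%), against 3.315% of all 35116 promoters. They stood in 3 of 23 windows of genes that fell and in 3 of 18 windows of genes that did not. The 6 genes are shown because they are all the members that hold the letters, with the motif in capitals within 30 bases read 5′ to 3′ on the strand of the gene.
EXO1: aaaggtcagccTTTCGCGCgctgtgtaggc
FANCC: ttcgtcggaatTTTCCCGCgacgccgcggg
FANCC: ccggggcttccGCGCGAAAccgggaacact
XRCC2: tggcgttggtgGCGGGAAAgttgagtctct
FANCA: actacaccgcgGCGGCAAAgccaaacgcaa
FANCD2: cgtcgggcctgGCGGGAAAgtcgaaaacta
XRCC6: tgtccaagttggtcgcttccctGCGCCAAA
The windows lie at chr1:241848197-241848226 (EXO1, plus strand), chr9:95317737-95317766 and chr9:95317863-95317892 (FANCC, minus), chr7:152676102-152676131 (XRCC2, minus), chr16:89816801-89816830 (FANCA, minus), chr3:10026424-10026453 (FANCD2, plus) and chr22:41621315-41621344 (XRCC6, plus). EXO1, FANCC and XRCC2 fell, and FANCA, FANCD2 and XRCC6 did not pass the test. The calls of EXO1, FANCC and XRCC2 were lost with scaling by library size alone. XRCC4, FANCE and ATM did not hold these letters in their windows, and NBN, DNA2, WRN, RAD54B, FANCI, XRCC5 and PRKDC were not searched.

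Other motifs were near or on either side of the background. The CHR letters (TTTGAA or TTCGAA) stood in 5 of the 41 windows (12.2%, all promoters 16.4%), the CCAAT box in 19 (46.3%, all promoters 34.6%) and the MYC E-box CACGTG in 3 (7.32%, all promoters 7.26%). The CCAAT box was in 9 of 23 windows of genes that fell and in 10 of 18 of the others. A match describes letters only and not the binding of a factor.

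Among the 8 damage signalling genes, 4 fell and none (0) rose, with a median log2 fold change of -0.18. Of the abundant genes 42.1% fell and 26.5% rose, and of all genes tested 28.9% and 29.6%. ATM, the kinase that responds to double-strand breaks (ENSG00000149311.18, chr11:108223044-108369102, plus strand), held 3724, 3395 and 3798 normalized counts in WT replicates 1 to 3 and 2017, 2308 and 2077 in Delta-TRRAP. The groups did not overlap, and ATM fell by 0.77 on the log2 scale (SE 0.06, adjusted p = 2.5e-08). CHEK2, the effector kinase that ATM phosphorylates, held 2051, 2172 and 2032 in WT and 1271, 1170 and 1311 in Delta-TRRAP. Every Delta-TRRAP library lay well below every WT library, and CHEK2 fell by 0.74 (SE 0.06, adjusted p = 1.6e-08), the smallest adjusted p of this group.

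The kinase pair that answers single-stranded DNA moved less. ATR, the apical kinase of that branch, held 3386, 3355 and 3473 in WT and 2597, 2918 and 2233 in Delta-TRRAP, a fall of 0.40 on the log2 scale (SE 0.07, adjusted p = 0.00020) that was lost with scaling by library size alone (adjusted p = 0.011). CHEK1, its effector, fell by 0.20 (SE 0.05, adjusted p = 0.0025), and this call was lost in 4 of 15 alternatives, among them without WT replicate 2 and without Delta-TRRAP replicate 1. ATRIP, the obligate partner of ATR, had a log2 fold change of 0.16 (SE 0.06, adjusted p = 0.044). TREX1 covers 26.7% of the exon bases of ATRIP on the same strand, and htseq-count in union mode drops reads in such shared stretches.

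The chromatin adaptors of the response did not pass the test. MDC1, which binds phosphorylated H2AX beside a break, had a log2 fold change of 0.27 (SE 0.09, adjusted p = 0.012), with 1658, 1959 and 1435 normalized counts in Delta-TRRAP against 1318, 1365 and 1500 in WT, so that the groups overlapped through Delta-TRRAP replicate 3. MDC1 passed, as higher, in 6 of 15 alternatives, among them without Delta-TRRAP replicate 3. TP53BP1, which shields ends from resection, had -0.15 (SE 0.07, adjusted p = 0.072), and passed as lower without Delta-TRRAP replicate 2. RNF8, the ubiquitin ligase recruited by MDC1, had the adjusted p nearest to 1 in this group (0.229), with 2633, 2777 and 2641 in WT and 2801, 2733 and 2917 in Delta-TRRAP.

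End resection genes had the lowest median of the 5 role groups (-0.48), and 6 of 8 fell, beside 42.1% of the abundant genes. DNA2, a nuclease and helicase that lengthens the resected tract, held 4992, 4576 and 4844 normalized counts in WT and 2959, 2989 and 3027 in Delta-TRRAP. Its Delta-TRRAP libraries lay close together and far below WT, a fall of 0.68 on the log2 scale (SE 0.05, adjusted p = 9.4e-09). RBBP8, also called CtIP, which starts resection with MRE11, held 4886, 4663 and 4622 in WT and 3086, 3084 and 3048 in Delta-TRRAP and fell by 0.62 (SE 0.05, adjusted p = 1.7e-08). BLM, the helicase that works with DNA2 and dissolves double Holliday junctions, held 5344, 5440 and 5593 in WT and 3529, 3653 and 3447 in Delta-TRRAP, and fell by 0.62 (SE 0.05, adjusted p = 1.9e-08). For both genes the groups were far apart. EXO1, the other long-range nuclease, fell by 0.35 (SE 0.06, adjusted p = 7.7e-05), a call lost with library size alone (adjusted p = 0.010). WRN, a helicase related to BLM, had the adjusted p nearest to 1 in the group (0.0981), with 6483, 6122 and 6423 in WT and 5907, 6294 and 5385 in Delta-TRRAP, which overlap.

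The 3 genes of the break sensor MRN gave 3 different values. NBN, the subunit that brings ATM to the complex, held 10239, 9518 and 9899 normalized counts in WT and 6331, 6578 and 6204 in Delta-TRRAP, a fall of 0.63 on the log2 scale (SE 0.05, adjusted p = 2.4e-08). MRE11, the nuclease, fell by 0.32 (SE 0.05, adjusted p = 3.5e-05). RAD50, the ATPase that tethers ends, was at 195, 214 and 238 in WT and 283, 295 and 197 in Delta-TRRAP (adjusted p = 0.088), and passed as higher without Delta-TRRAP replicate 3. Another annotated gene on the same strand, itself at 0 in all libraries, covers 76.9% of the exon bases of RAD50, so most RAD50 reads would be dropped as ambiguous and its level here is no measure of the transcript.

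In homologous recombination 9 of 12 genes fell and 1 rose, with a median of -0.32. Of the abundant genes 42.1% fell and 26.5% rose. RAD54L, a motor protein of strand invasion, held 2815, 2864 and 2984 normalized counts in WT and 1750, 1786 and 1751 in Delta-TRRAP. It fell by 0.71 on the log2 scale (SE 0.05, adjusted p = 4.4e-09) with a wide gap between the groups. Its relative RAD54B fell by 0.52 (SE 0.11, adjusted p = 0.00064) at a low level, between 170 and 184 in WT and between 109 and 133 in Delta-TRRAP, with 66% of its exon bases shared with FSBP. RAD52, an annealing protein, fell by 0.35 (SE 0.08, adjusted p = 0.00087), a call lost with scaling by library size alone and with the length trend removed.

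The genes XRCC2, XRCC3, RAD51B, RAD51C and RAD51D, whose proteins form a pair of complexes that assist strand exchange, differed among themselves. XRCC3 held 1041, 975 and 1025 normalized counts in WT and 715, 653 and 651 in Delta-TRRAP, without overlap, and fell by 0.59 on the log2 scale (SE 0.06, adjusted p = 4.8e-07). RAD51C, the partner of XRCC3 in one of these complexes, fell by 0.45 (SE 0.06, adjusted p = 3.3e-06). XRCC2 (fall of 0.22, SE 0.06) and RAD51D (fall of 0.19, SE 0.06) both passed at an adjusted p of 0.0078, and each call was lost in 9 of 15 alternatives, among them DESeq2 and leaving out WT replicate 1, WT replicate 2, Delta-TRRAP replicate 1 or Delta-TRRAP replicate 3. RAD51B had a log2 fold change of 0.25 (SE 0.08, adjusted p = 0.013) and passed as higher in 4 of the alternatives, among them without Delta-TRRAP replicate 2.

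The BRCA proteins prepare resected DNA for strand exchange. BARD1, the obligate partner of BRCA1, held 1169, 1206 and 1165 normalized counts in WT and 742, 848 and 770 in Delta-TRRAP. It fell by 0.58 on the log2 scale (SE 0.06, adjusted p = 5.3e-07), with a 1.499-fold decrease just short of the 1.5-fold threshold that XRCC3 (1.506-fold) passed. BRCA1 fell by 0.29 (SE 0.08, adjusted p = 0.0038), with 9558, 9460 and 9741 in WT and a wide spread of 8011, 8834 and 6591 in Delta-TRRAP. Its call was lost without WT replicate 1, 2 or 3, without Delta-TRRAP replicate 1, and with library size alone. BRCA2, a mediator of strand exchange, had the adjusted p nearest to 1 in the group (0.144), with 2016, 1960 and 2041 in WT and 1761, 2122 and 1584 in Delta-TRRAP, and passed as lower only without Delta-TRRAP replicate 2 among the alternatives. PALB2, which joins BRCA1 to BRCA2, rose by 0.23 (SE 0.05, adjusted p = 0.0015), with 1427, 1545 and 1561 in WT and 1775, 1835 and 1711 in Delta-TRRAP, a call lost without WT replicate 1 (adjusted p = 0.020).

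The Fanconi anaemia genes had the median nearest to 0 of the 5 groups (-0.14), and 4 of 12 fell, beside 28.9% of all genes and 42.1% of the abundant ones. Of the 12, 8 encode parts of the core complex, the ubiquitin ligase of the pathway, and the 4 that fell are among these 8. FANCE, which links the core to FANCD2 (ENSG00000112039.4, chr6:35452338-35467104, plus strand), held 1424, 1296 and 1269 normalized counts in WT and 814, 670 and 802 in Delta-TRRAP, and fell by 0.80 on the log2 scale (SE 0.07, adjusted p = 1.4e-07). FANCB held 1320, 1243 and 1220 in WT and 799, 931 and 755 in Delta-TRRAP, and fell by 0.61 (SE 0.07, adjusted p = 2.2e-06). Neither gene overlapped between groups. FANCG fell by 0.49 (SE 0.07, adjusted p = 1.2e-05) and FANCC, the direct partner of FANCE, by 0.28 (SE 0.05, adjusted p = 0.00016), the latter lost with library size alone (adjusted p = 0.041).

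The other 4 core complex genes measured did not pass. FANCL, the catalytic subunit, had -0.14, FANCA -0.13, FANCM, the translocase that anchors the core on DNA, -0.08, and FANCF 0.11 on the log2 scale (adjusted p = 0.097, 0.048, 0.31 and 0.141). FANCL passed as lower without Delta-TRRAP replicate 3. FANCI and FANCD2, the clamp that the core ubiquitinates, were abundant, and their log2 fold changes were -0.04 (SE 0.05, adjusted p = 0.577) and 0.03 (SE 0.05, adjusted p = 0.604). BRIP1, a helicase that binds BRCA1, had -0.21 (SE 0.07, adjusted p = 0.017) and passed as lower without Delta-TRRAP replicate 2. SLX4, the scaffold of crosslink nucleases, had the adjusted p nearest to 1 of the group (0.648), with 752, 749 and 842 in WT and 756, 897 and 590 in Delta-TRRAP, the widest relative spread among these 12 genes in Delta-TRRAP.

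End joining held both the strongest fall and the strongest rise of the 48 genes, in the 2 partners of a single complex. XRCC4, the scaffold of ligase IV (ENSG00000152422.15, chr5:83077498-83353787, plus strand), held 1529, 1363 and 1275 normalized counts in WT and 729, 626 and 665 in Delta-TRRAP. It fell by 1.04 on the log2 scale (SE 0.07, adjusted p = 7.3e-09), a 2.06-fold decrease. Without WT replicate 1, without Delta-TRRAP replicate 2, with library size alone and with the length trend removed the decrease no longer reached 2-fold, though XRCC4 stayed lower at the adjusted p threshold in all 15 alternatives. LIG4, the ligase that seals the ends (ENSG00000174405.13, chr13:108207439-108218368, minus strand), held 955, 987 and 928 in WT and 1601, 1681 and 1733 in Delta-TRRAP. It rose by 0.80 (SE 0.05, adjusted p = 4.0e-09), a 1.75-fold increase, and stayed higher in all 15 alternatives.

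The Ku and DNA-PK genes, which are the first to bind blunt ends, changed by less. XRCC5, the larger Ku subunit, fell by 0.32 on the log2 scale (SE 0.05, adjusted p = 2.2e-05), from 23309, 23883 and 23575 in WT to 18537, 19055 and 19141 in Delta-TRRAP. XRCC6, the smaller, had -0.14 (SE 0.05, adjusted p = 0.025), with no overlap between groups, and passed as lower only without WT replicate 1. PRKDC, the catalytic subunit of DNA-PK, also had -0.32 but with a standard error of 0.11 (adjusted p = 0.015), since its Delta-TRRAP libraries ran from 25468 to 37880 against 36059 to 43256 in WT, and it passed as lower in 4 of 15 alternatives, among them without Delta-TRRAP replicate 2. DCLRE1C, the Artemis nuclease that DNA-PK activates, fell by 0.32 (SE 0.05, adjusted p = 4.8e-05).

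PARP1, which detects breaks and serves the alternative route of end joining, held 25080, 26537 and 27429 normalized counts in WT and 16762, 17401 and 16830 in Delta-TRRAP. The groups were well apart, with a fall of 0.63 on the log2 scale (SE 0.05, adjusted p = 2.9e-08). POLQ, the polymerase of that route, had the adjusted p nearest to 1 among end joining genes (0.496), with 1321, 1251 and 1425 in WT and 1474, 1614 and 1125 in Delta-TRRAP. It passed as higher only without Delta-TRRAP replicate 3.

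**Figure D2:**
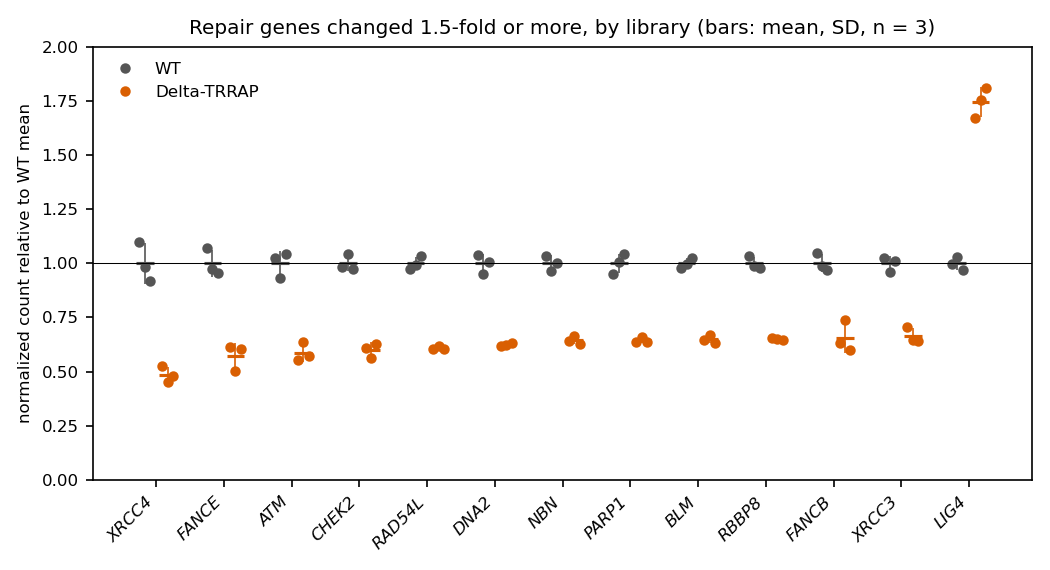
Normalized count of each library divided by the WT mean of the gene (vertical axis, from 0) for the 13 repair genes that changed at least 1.5-fold at an adjusted p of 0.01 or less. Points are libraries, horizontal bars are means and vertical bars SDs over 3 libraries; in all 13 genes the WT and Delta-TRRAP points are separate, and LIG4 alone lies above WT.

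Across the 48 genes, 19 fell and LIG4 rose in the main test and in each of the 15 alternatives. The share of all genes called in every setting was not taken. Per alternative, between 16.7% and 39.7% of all genes fell and between 18.6% and 37.7% rose. Repair genes together took between 0.570% and 0.602% of all counts in WT, against 0.490% to 0.557% in Delta-TRRAP, and PRKDC, PARP1, XRCC5 and XRCC6 alone made up 42.5% to 45.4% of that. Per length, as RPKM on merged exons with the TMM-scaled library size, WT means ran from 0.525 for RAD50, which loses reads as described, through 0.855 for RAD54B, to 111 for XRCC5 and 139 for XRCC6. RAD54B shares 66% of its exon bases with FSBP on the same strand, where reads are dropped too, so its level is understated. The median gene was at 5.29 RPKM in WT. On this scale XRCC4 was at 13.3 RPKM in WT and 6.47 in Delta-TRRAP, and LIG4 at 3.45 and 6.03, so XRCC4 was well above LIG4 in WT and near it in Delta-TRRAP. With the longest transcript as length XRCC4 was at 21.0 and 10.2 RPKM, and LIG4 at 3.64 and 6.36, so that XRCC4 stayed above LIG4 in both groups.

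Within a library the ratio of 2 partner genes does not depend on scaling. For 6 pairs of partners, chosen with their values known and written with the gene of the lower fold change first, ratios of counts are given as a description, with no test. Their direction follows from that choice, and only the sizes are of use. XRCC4 over LIG4 went from 1.60, 1.38 and 1.37 in WT to 0.455, 0.373 and 0.384 in Delta-TRRAP, a change of -1.85 on the log2 scale. CHEK2 over CHEK1 went from a mean of 0.316 ± 0.0119 (SD, n = 3) to 0.218 ± 0.0098, and ATM over ATR from 1.07 ± 0.049 to 0.833 ± 0.085. NBN over MRE11 went from 2.12 ± 0.0377 to 1.71 ± 0.029, XRCC5 over XRCC6 from 1.35 ± 0.0524 to 1.19 ± 0.0291, and BARD1 over BRCA1 from 0.123 ± 0.004 to 0.102 ± 0.0131.

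**Figure D3:**
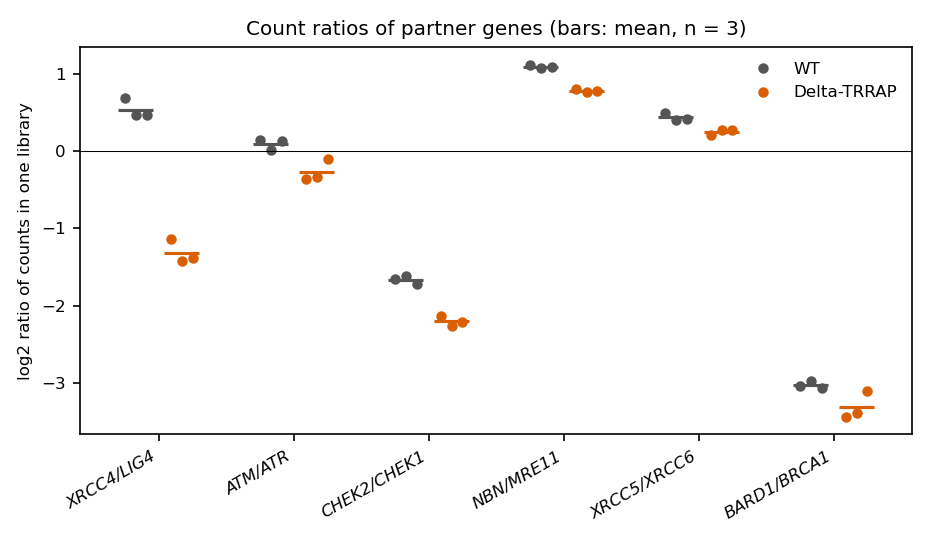
Log2 ratio of the counts of 2 partner genes in the same library (vertical axis) for 6 pairs, with points for libraries and bars for the mean of 3. The pairs were chosen with values known and the gene of the lower fold change was put first, which fixes the direction; the mean difference (Delta-TRRAP minus WT) is -1.85 log2 units for XRCC4 over LIG4 and -0.18 for XRCC5 over XRCC6.

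Differences between replicates followed transcript length. Over 11445 genes the log2 ratio of Delta-TRRAP replicate 3 to replicate 2 had a Pearson correlation of -0.45 with log2 transcript length, as a description across genes of 2 libraries. In WT the correlation was 0.33 for replicate 3 over replicate 1 and 0.27 for replicate 3 over replicate 2. The median log2 ratio of Delta-TRRAP replicate 3 to replicate 2 was 0.129 for transcripts under 2000 bases and -0.198 for those over 10000. Repair genes include many long transcripts. In the 11 genes whose longest transcript exceeds 8000 bases, Delta-TRRAP replicate 3 was the lowest of its group in 9, against 16 of the 37 shorter genes. The median log2 ratio of replicate 3 to replicate 2 was -0.35 in the longer genes and -0.03 in the shorter ones. SLX4, RAD50, PRKDC, POLQ, MDC1, BRCA1 and BRCA2 had the lowest ratios. With the length trend taken out of each library, an alternative added after the data were seen, 24 repair genes fell and 8 rose. Of all genes 23.8% fell and 37.2% rose in that setting.

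**Figure D4:**
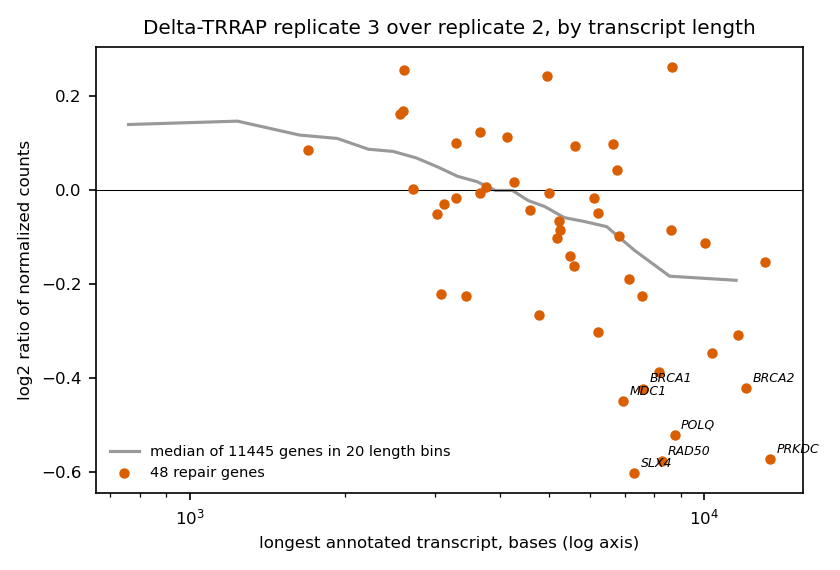
Log2 ratio of normalized counts of Delta-TRRAP replicate 3 to replicate 2 (vertical axis) against the longest annotated transcript in bases (log axis). Points are the 48 repair genes, with those beyond 0.4 named, and the line joins medians of 11445 genes in 20 length bins, which fall from above 0 in short transcripts to below 0 in long ones.

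The genes around each repair gene were described too. For 38 repair genes with at least 10 neighbours within 2 Mb (each averaging 100 or more normalized counts), the median log2 fold change of the neighbours ran from -0.42 (ATR) to 0.21, with a median of -0.04. Of the 23 of these genes that fell, 15 lay more than 0.3 below the median of their neighbours. Because the 23 were picked as lower, that count follows in part from the choice. The share of other genes that fell and did so was not taken. ATR, at -0.40, did not stand below the genes around it. MRE11 (-0.32, neighbours -0.26) and DCLRE1C (-0.32, neighbours -0.29) stood little below theirs. The neighbours of ATM had a median of -0.26 and those of FANCE -0.14. Among repair genes with fewer neighbours, EXO1 (5 neighbours, -0.76) and BRCA2 (8 neighbours, -0.46) also lay among genes with low values, and their own fold changes were -0.35 and -0.14. XRCC4 had 7 neighbours, with a median of 0.002, and LIG4 had 6, with -0.10. Within 5 Mb the medians were -0.39 around EXO1, -0.38 around BRCA2 and -0.39 around FANCM.

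Other genes of these pathways moved in both directions. Of 78 further genes in 5 lists, 75 were tested, 35 fell and 11 rose, with a median of -0.15, where 42.1% of abundant genes fell, 26.5% rose and their median was -0.11. The median was lowest (-0.53) in the list of chromatin ubiquitin and shieldin factors, where 10 of 15 fell and 1 rose. UIMC1, also called RAP80, which brings BRCA1 to ubiquitinated chromatin, held 4619, 4965 and 4726 normalized counts in WT and 1193, 1135 and 1212 in Delta-TRRAP. It fell by 2.02 on the log2 scale (SE 0.05, adjusted p = 8.0e-14), more than any of the 48. L3MBTL1, a reader of methylated histones, fell by 2.34 (SE 0.16, adjusted p = 2.9e-09) with 256, 206 and 271 in WT and 43, 42 and 60.2 in Delta-TRRAP, and SHLD2, a shieldin subunit, fell by 0.77 (SE 0.05, adjusted p = 5.2e-09). All 3 lay among genes with low values, with medians within 2 Mb of -0.38 (UIMC1), -0.55 (L3MBTL1) and -0.27 (SHLD2).

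In the list of the checkpoint clamp and ATR activators 7 of 10 genes fell and none (0) rose, beside 42.1% and 26.5% of abundant genes. RAD1, a clamp subunit, and WEE1, the kinase that holds CDK1 inactive, each fell by 0.60 (adjusted p = 1.2e-07 and 1.5e-07), and TIPIN, of the fork protection complex, fell by 0.39 (adjusted p = 4.3e-06). Neighbours within 2 Mb had a median of -0.49 for RAD1, 0.10 for WEE1 and -0.006 for TIPIN. Among strand exchange and single-strand binding genes 6 of 16 tested fell and 3 rose, beside 42.1% and 26.5% of abundant genes. RECQL4, a helicase, fell by 0.92 and RPA3, the small RPA subunit, by 0.82 (adjusted p = 1.7e-09 and 5.8e-08), whereas the helicase RECQL5 rose by 0.61 (adjusted p = 2.1e-07).

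Junction resolution and crosslink nuclease genes fell in 7 of 20 tested and rose in 5. Of abundant genes 42.1% fell and 26.5% rose, and of all genes tested 28.9% and 29.6%. USP1, which removes ubiquitin from FANCD2, fell by 0.79 (adjusted p = 1.5e-09). Both subunits of the XPF-ERCC1 nuclease rose, ERCC4 by 1.01 (SE 0.07, adjusted p = 6.8e-09), from 687, 684 and 694 in WT to 1326, 1561 and 1279 in Delta-TRRAP, and ERCC1 by 0.41 (SE 0.05, adjusted p = 2.8e-06). ERCC4 was the only one of the 75 that rose at least 2-fold, and it fell short of 2-fold without WT replicate 1, WT replicate 2 or Delta-TRRAP replicate 2. In end joining and strand-break processing 5 of 14 tested fell and 2 rose, beside 42.1% and 26.5% of abundant genes. LIG1, a replicative ligase, fell by 0.73, TDP1, which clears stalled topoisomerase, fell by 0.62, and POLL, a gap-filling polymerase, rose by 0.62 (adjusted p = 2.3e-09, 1.4e-07 and 2.8e-07). Their neighbours within 2 Mb had medians of -0.39, 0.05 and -0.21.

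Cell cycle genes moved with the repair genes and by more. Of 34 genes of the G1/S and replication and the G2/M lists, 30 fell and none (0) rose, with medians of -0.40 and -0.46. Among abundant genes 42.1% fell and 26.5% rose. UHRF1, which maintains DNA methylation through S phase, fell by 1.32 (SE 0.05, adjusted p = 7.7e-12), and TOP2A, the topoisomerase of mitotic chromosomes, fell by 0.99 (SE 0.06, adjusted p = 4.7e-10). The marker lists moved in both directions or hardly passed. Of 12 erythroid genes 6 rose and 3 fell, with a rise of 3.72 for ALAS2, which had the smallest adjusted p (7.1e-16), and a fall of 1.12 for TFRC. Neighbours within 2 Mb had a median of -0.07 for ALAS2 and -0.73 for TFRC. Of 5 lymphoid genes tested 1 rose, RAG1, by 1.39 (adjusted p = 1.9e-09), and of 4 fibroblast genes tested 2 rose, with the smallest adjusted p for COL1A2, which rose by 8.92 from 1.63 to 868 (adjusted p = 1.8e-14). The part of cell cycle position in the values of the repair genes was not tested.

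**Figure D5:**
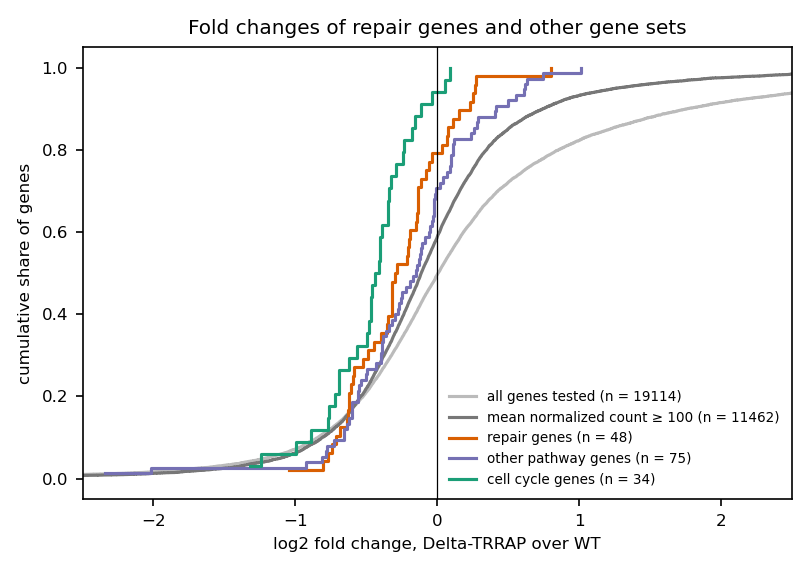
Cumulative share of genes (vertical axis, 0 to 1) at or below each log2 fold change of Delta-TRRAP over WT (horizontal axis) for all 19114 genes tested, the 11462 averaging 100 or more normalized counts, the 48 repair genes, 75 other pathway genes and 34 cell cycle genes. The repair genes lie left of both backgrounds around the middle (median -0.29) and the cell cycle genes farther left (median -0.42), while the right-hand tail of all genes is nearly missing from both.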

How the data were processed

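Poly(A) RNA was sequenced from 6 libraries, grouped by title. The authors deposited counts per gene: uniquely mapped by STAR on hg38, then assigned by HTSeq 2.0.2 (reverse-stranded, union mode, GENCODE genes). Multimapping and ambiguous reads were dropped, which lowers genes with shared sequence. A deposited table of scaled counts (with 3 columns of another condition) and one of the authors' fold changes and p-values were not used here.

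Tests used edgeR 4.0.16 under R 4.3.3 (TMM, quasi-likelihood F test, group only, Benjamini-Hochberg adjustment over the 19114 genes that averaged 5 or more normalized counts), checked on simulated data. Calls used an adjusted p of 0.01. SEs were the log2 fold change divided by the square root of F. Positions and lengths came from GENCODE on GRCh38 in a later release. Each member past 1.5-fold, and the smallest adjusted p and that nearest to 1 per role, was given by library. Members and lists were chosen with earlier results of these data known. Deviations of same-numbered libraries had correlations of -0.0095, -0.029 and -0.019, so numbers did not pair. Alternatives were DESeq2 1.42.0, limma-voom (limma 3.58.1), other scalings and filters, a replicate block, each library left out, and a length correction. With 35076835 to 42616061 counts per library, precision rests mainly on the spread between replicates of a clone.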

Additional observations from a re-analysis of the deposited data

How the results depend on the processing

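Of the 48 repair genes, 20 kept their direction and side of the threshold under all 15 alternatives, 19 of them lower. The share of all genes that did so was not taken. The median of all genes shifted by 0.16 on the log2 scale with library size alone and by 0.13 with the length trend removed. Members lower and higher numbered 27 and 2 in the main test (93.1% of calls lower), 19 and 8 with library size alone (70.4%), 24 and 8 without the length trend (75%), 25 and 3 with DESeq2, and 27 and 2 with limma-voom. Of all genes 28.9% fell and 29.6% rose in the main test (49.4% of calls lower). The shares were 21.2% and 37.7% with library size alone (36%), and 23.8% and 37.2% without the length trend (39%). They were 26.7% and 27.7% with DESeq2, and 28.8% and 29.1% with limma-voom. With the replicate block 26 members fell and 2 rose, RAD51D being the call lost, beside 27.8% and 28.4% of all genes. Leaving out 1 library gave 23 to 31 members lower and 1 to 5 higher, the 1 without WT replicate 1 and the 5 without Delta-TRRAP replicate 3. In these fits 26.3% to 29.1% of all genes fell and 25.9% to 28.7% rose. The median of members was -0.13 with library size alone and -0.20 without the length trend; relative to all genes it was -0.30 and -0.33. At 2-fold, XRCC4 was lost with library size alone and without the length trend (0 lower each), leave-one-out gave 0 to 1, and a 1.5-fold threshold gave 12 lower and 1 higher. Other pathway genes that rose numbered 20 with library size alone and 20 without the length trend. At 1.5-fold 14 of them fell and 5 rose, and ERCC4 was under 2-fold without WT replicate 1, WT replicate 2 or Delta-TRRAP replicate 2 (0 to 1 higher). The median RPKM was 9.74 with the longest transcript as length.

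With library size alone the log2 fold change turned positive for TP53BP1 (0.0054), WRN (0.044), BRCA2 (0.021), FANCA (0.023), FANCI (0.12), FANCL (0.016), FANCM (0.079), SLX4 (0.098) and XRCC6 (0.019), none of which passed in the main test. Without the length trend it turned positive for FANCI (0.059), FANCM (0.023) and SLX4 (0.039). By construction these 2 settings shift all genes. Leaving out 1 library turned FANCD2 (-0.0097 to 0.066), FANCI (-0.079 to 0.0013), SLX4 (-0.21 to 0.082), POLQ (-0.033 to 0.21), EP400 (-0.047 to 0.26) and TRRAP (-0.14 to 0.15), the ends without WT replicate 1 or 3 for FANCD2 and without Delta-TRRAP replicate 2 or 3 for the others. Depth limited no member, since the lowest mean normalized count was 150 (RAD54B). Reads dropped in shared exons lower the counts of RAD54B and RAD50.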
